A study of Mus musculus with 16 samples.

Results

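The genes described here are 10 mouse genes that germ cells use in place of a housekeeping relative: Ldhc, Pgk2, Pdha2, Gapdhs, Cetn1, Utp14b, Rbmxl2, Rpl10l, Cstf2t and Cox6b2. They were chosen by name, as germ cell copies of housekeeping genes, and found in the count tables by Ensembl identifier. They are 10 of the 55414 genes in the tables. The choice used no measured value of these libraries, although earlier results from the same data were known when the genes were picked.

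Mouse testes, whole, from postnatal day 14 or 16 (P14, P16) were profiled by RNA sequencing after removal of ribosomal RNA. All mice, those of both kinds of control (control and Cre control) and those with conditional knockout of Ythdc2 (cKO), received tamoxifen at 10 mg/ml on P12 and P13. Ythdc2 encodes an RNA helicase of the YTH family, which germ cells need for meiosis, and the series is concerned with its later role, in spermatocytes. There were 2 control libraries at each stage, 2 Cre control libraries at the earlier stage and 4 at the later one, and 3 cKO libraries at each stage. The labels give no further description of the alleles, of the Cre driver or of what separates the 2 kinds of control, and they do not say whether each library came from a separate animal, so p-values measure the spread between these libraries. Controls and cKO libraries 1 and 2 were made with a Ribo-Zero depletion kit, and Cre controls and cKO library 3 with a NEBNext depletion kit. In the comparison with Cre controls, kit and genotype therefore partly coincide for 2 of the 3 cKO libraries. Cre control P16 libraries 2 to 4 came from another sequencing run than the other NEBNext libraries, per the column names.

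Spermatocytes silence their sex chromosomes in pachytene, the long stage of meiotic prophase in which paired chromosomes recombine. Several housekeeping genes of the X chromosome have autosomal copies made by reverse transcription of their messenger RNA, which are transcribed in these cells. Other germ cell isoforms arose by ordinary duplication and encode enzymes with properties suited to sperm, which depend on glycolysis and lactate. P14 and P16 fall in the days when the first wave of germ cells enters and passes through pachytene.

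All 10 genes lie on autosomes, and the counterparts of 7 lie on the X chromosome. Pgk2 (ENSMUSG00000031233, chromosome 17), Pdha2 (ENSMUSG00000047674, chromosome 3), Rbmxl2 (ENSMUSG00000073894, chromosome 7), Rpl10l (ENSMUSG00000060499, chromosome 12) and Cstf2t (ENSMUSG00000053536, chromosome 19) have only transcripts of 1 exon in the GENCODE M21 annotation. Cetn1 (ENSMUSG00000050996) and Utp14b (ENSMUSG00000079470, chromosome 1) have transcripts of up to 2 and 4 exons, and their counterparts Cetn2 and Utp14a are X-linked as well. Ldhc (ENSMUSG00000030851), Gapdhs (ENSMUSG00000061099) and Cox6b2 (ENSMUSG00000051811) lie on chromosome 7, have transcripts of up to 8, 11 and 4 exons, and have autosomal counterparts. None of the 10 genes shares a run of 50 bases with its own counterpart, so a read of at least that length fits only one gene of a pair. Utp14b shares exon sequence on the same strand with Acsl3, and its count is uncertain to that extent. Among the counterparts, 68.0% of the 50-base runs of Pgk1 and 57.2% of those of Rpl10 also occur in other annotated genes, as do 27.2% of those of Gapdh, 27.0% of those of Ldhb and 16.6% of those of Ldha. The values of these 5 counterparts are uncertain for that reason, and to a lesser degree that of Rpl10l, at 7.60%.

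The region before the transcription start is shown for 4 of the genes that rose between P14 and P16 in both kinds of control, 2 with steep rises (Ldhc, Pgk2) and 2 with shallower ones (Pdha2, Cox6b2). The sequences are RefSeq promoters of the build GRCm38.p6, each of 250 bases ending just before the annotated start and read 5′ to 3′ on the gene's own strand. They lie at chr7:46861013-46861262 (plus strand) for Ldhc, chr17:40208610-40208859 (minus strand) for Pgk2, chr3:141212356-141212605 (minus strand) for Pdha2 and chr7:4753095-4753344 (minus strand) for Cox6b2. Capitals mark matches, on either strand, to TGACG (the core of the cAMP response element), AACTGNC (a MYB-type sequence), TATAAA and CCAAT.
Ldhc: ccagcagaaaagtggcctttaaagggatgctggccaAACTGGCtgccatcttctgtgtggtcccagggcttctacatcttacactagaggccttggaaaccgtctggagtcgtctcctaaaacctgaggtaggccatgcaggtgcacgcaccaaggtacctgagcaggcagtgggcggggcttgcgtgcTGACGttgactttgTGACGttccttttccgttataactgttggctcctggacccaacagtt
Pgk2: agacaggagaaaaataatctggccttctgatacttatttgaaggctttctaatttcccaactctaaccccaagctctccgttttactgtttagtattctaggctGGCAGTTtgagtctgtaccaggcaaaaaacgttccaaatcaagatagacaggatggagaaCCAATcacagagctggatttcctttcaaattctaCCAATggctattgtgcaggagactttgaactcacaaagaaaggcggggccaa
Pdha2: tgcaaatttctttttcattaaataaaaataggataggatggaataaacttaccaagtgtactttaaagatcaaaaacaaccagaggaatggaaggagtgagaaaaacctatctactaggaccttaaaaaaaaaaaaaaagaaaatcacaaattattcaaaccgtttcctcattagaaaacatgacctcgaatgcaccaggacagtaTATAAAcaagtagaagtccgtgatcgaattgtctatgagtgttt
Cox6b2: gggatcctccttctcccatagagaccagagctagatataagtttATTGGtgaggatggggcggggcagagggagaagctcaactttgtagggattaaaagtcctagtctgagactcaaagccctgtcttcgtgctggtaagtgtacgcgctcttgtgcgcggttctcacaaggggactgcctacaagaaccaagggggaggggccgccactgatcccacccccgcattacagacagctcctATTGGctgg
Counting from the annotated start of the entry shown, the Ldhc window holds TGACG at -61 and -47 and AACTGNC at -214. Ldhc has another RefSeq promoter entry with a different start, not shown. Its upstream part lies at chr7:46861237-46861486 (plus strand), and it held none of these motifs. The Pgk2 window holds CCAAT at -86 and -52 and AACTGNC at -146, and the Pdha2 window holds TATAAA at -44. The Cox6b2 window holds CCAAT at -206 and -9. Promoter entries existed for 9 of the 10 genes, and Cetn1 is named only. Over windows that also include the 50 bases after the start, TGACG matched in 2 of the 9 genes and in 20.8% of 32817 mouse promoters, AACTGNC in 2 and in 12.8%, TATAAA in 1 and in 13.6%, and CCAAT in 4 and in 37.4%. The full cAMP element TGACGTCA, which contains TGACG, matched in 0 of the 9 and in 1.79% of promoters. No motif was common to the genes that rose, and a match is only a description of the letters.

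Reads on genes numbered 22220565 to 27531529 per library with the Ribo-Zero kit and 14494867 to 23200252 with the NEBNext kit. Ythdc2 was lower in every cKO library than in every control of its table, with 27.1 and 32.1 CPM (reads of the gene scaled to a common total of reads on genes) in cKO libraries 1 and 2 at P14 against 84.0 and 93.9 in the controls, and 19.2 and 20.7 against 103 and 100.2 at P16. Markers of spermatogonia, of leptotene to pachytene spermatocytes and of Sertoli cells were present in all libraries, and the 6 spermatid markers summed to 2.65 to 8.46 CPM. A library that stood apart was cKO P14 library 2, where 8 markers of pachytene and later spermatocytes summed to 1264 CPM against 855 to 960.4 in the other 3 Ribo-Zero libraries of P14. Among Cre controls at P16 the same sum ran from 1604 in library 4 to 2864 in library 1.

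In control testes Ldhc, Pgk2, Pdha2, Cetn1, Cox6b2 and Rpl10l were higher at P16 than at P14, while Rbmxl2, Cstf2t and Utp14b did not pass the test and Gapdhs could not be tested. Of the 9 genes with enough reads to test, 6 rose and 0 fell, where 13.3% of the 18581 genes tested rose and 6.67% fell. The median change of the 9 was 0.86 on the log2 scale, against -0.015 over all genes tested. The test was limma on log2 CPM of the reads recovered from the tables, with genes called at an adjusted p under 0.05. The 8 pachytene markers all rose over the same days, with their sum going from 855 and 960.4 to 1745 and 1782 CPM. In whole testes, more cells of a type and more RNA per cell cannot be told apart.

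The lactate and glycolysis genes are given first, and of these Pgk2 had the largest rise of all genes tested in the group. Pgk2, the retrogene form of phosphoglycerate kinase, stood at 1.38 and 1.53 CPM in the P14 controls and at 12.8 and 9.70 in the P16 controls. The ranges lie far apart, but the P14 values rest on 31 and 34 reads. The rise was 7.48-fold (log2 change 2.90, SE 0.25, limma adjusted p 0.00019). Ldhc, the lactate dehydrogenase subunit of spermatocytes and sperm, went from 92.0 and 102 CPM to 415 and 417, a 4.29-fold rise (log2 change 2.10, SE 0.24, limma adjusted p 0.00042). The P16 pair was nearly identical. Gapdhs, the sperm form of glyceraldehyde-3-phosphate dehydrogenase, is a gene of spermatids. It had 7 reads in all 16 libraries together, at most 1 in any library and 0 in 9 of them. In those 9 libraries a count of 0 allows up to 0.111 to 0.204 CPM at their depths, a limit that covers counting error only. No comparison was made for Gapdhs.

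Of the mitochondrial genes, Pdha2, the germ cell form of the pyruvate dehydrogenase E1 alpha subunit, was at 57.4 and 63.8 CPM in P14 controls and at 108 and 112 in P16 controls. Cox6b2, the testis form of a subunit of cytochrome c oxidase, was at 26.9 and 28.9 CPM and then at 50.6 and 55.1. Neither gene's stages overlapped, and the rises were 1.82-fold for Pdha2 (log2 change 0.86, SE 0.14, limma adjusted p 0.0021) and 1.90-fold for Cox6b2 (log2 change 0.92, SE 0.13, limma adjusted p 0.00091). Cetn1, a centrin of spermatocyte and sperm centrioles, went from 8.83 and 9.18 CPM to 37.5 and 39.1, which is 4.25-fold (log2 change 2.09, SE 0.27, limma adjusted p 0.00064). Its step was close to that of Ldhc.

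The genes for ribosomes and RNA processing moved least. Rpl10l, which replaces the ribosomal protein L10 in meiotic cells, stood at 72.0 and 86.3 CPM at P14 and at 114 and 117 at P16, a 1.46-fold rise (log2 change 0.55, SE 0.13, limma adjusted p 0.018). It was the least firm of the 6 rises: the call was lost without control P14 library 1 or without either P16 control, at limma adjusted p between 0.090 and 0.13. Rbmxl2, a splicing regulator of meiosis, was at 49.6 and 55.4 CPM and then at 70.0 and 69.7, and its change, 0.41 on the log2 scale (SE 0.13, limma adjusted p 0.055), did not pass. Cstf2t, a cleavage stimulation factor subunit for polyadenylation, held 112 and 117 CPM at P14 and 124 in both P16 libraries, a log2 difference of 0.12 (SE 0.06). Utp14b, a small subunit ribosome assembly factor whose loss stops spermatogonia in mice, held 43.5 and 45.6 CPM at P14 and 46.5 and 45.3 at P16, a log2 difference of 0.04 (SE 0.07). Cstf2t and Utp14b thus had already most of their P16 level at P14.

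Per kilobase of exon, Ldhc was by far the most abundant of the genes in P16 controls, at 263 ± 1.00 CPM per kb (SD, n = 2), followed by Rpl10l at 113 ± 1.72. Cox6b2 (47.7 ± 2.85), Rbmxl2 (47.5 ± 0.14) and Pdha2 (46.8 ± 1.49) did not differ beyond their spread on this measure. The length used joins the exons of all annotated transcripts. For Cox6b2 it is 1108 bases, while its longest transcript has 585, so the place of Cox6b2 depends on the length chosen. Cstf2t (29.3 ± 0.01) and Cetn1 (27.7 ± 0.81) came next. Pgk2 (6.91 ± 1.33) and Utp14b (5.98 ± 0.11) were lowest and did not differ beyond the spread of Pgk2. Pgk2 was therefore still the scarcest metabolic isoform detected, together with the steepest rise.

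**Figure D1:**
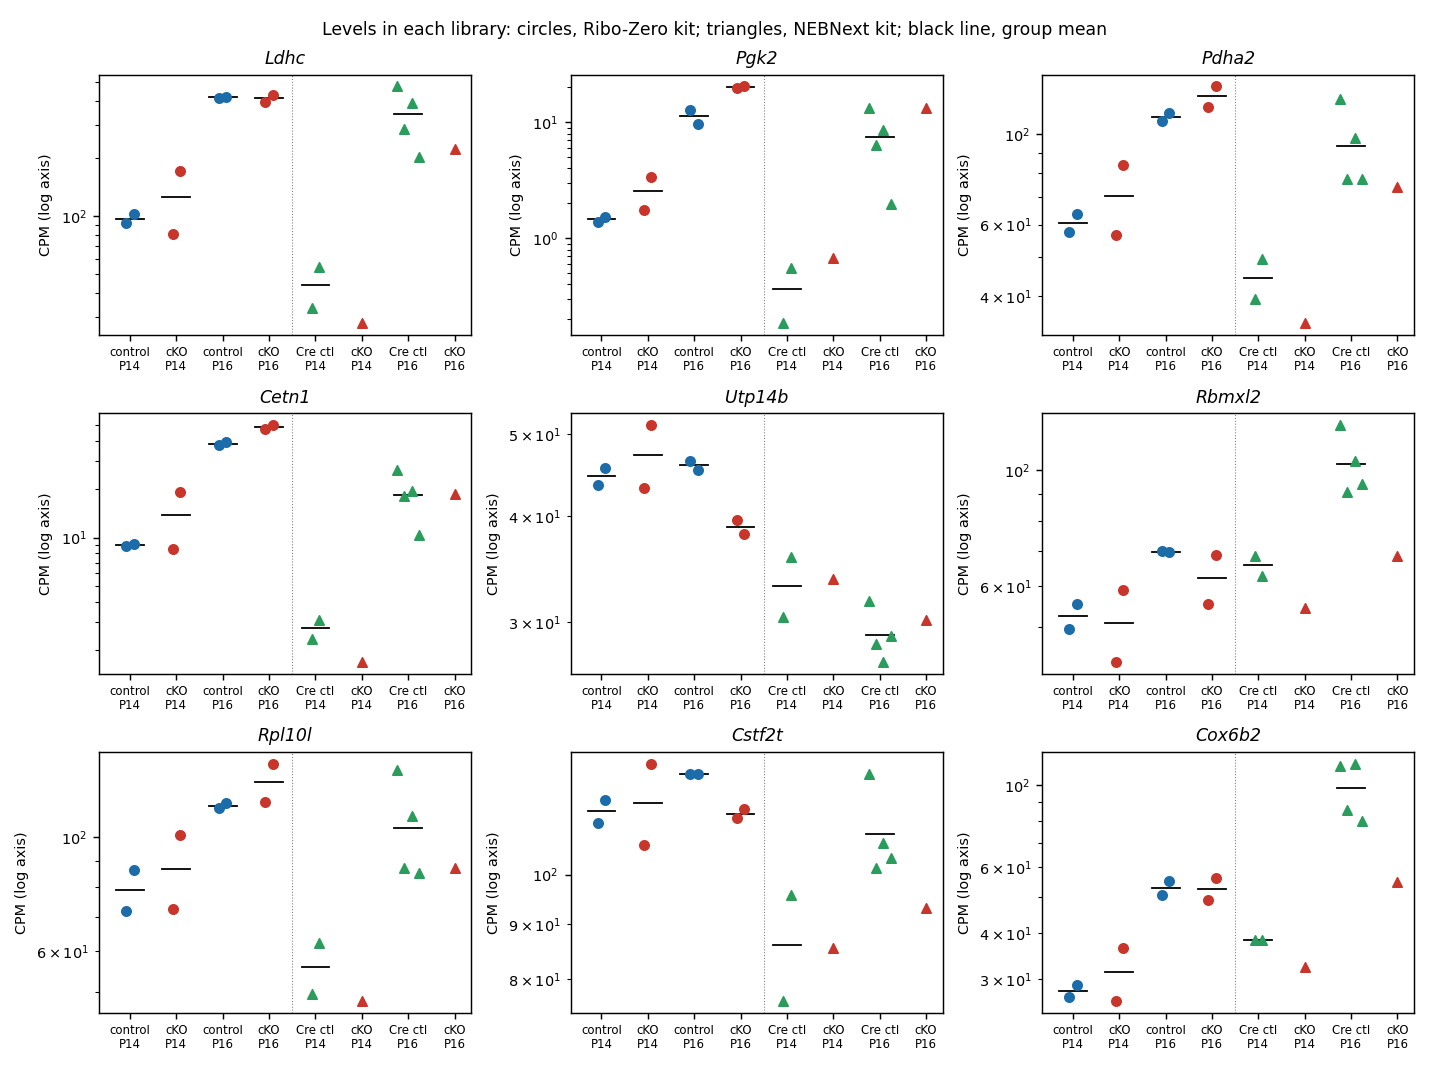
Each panel shows 1 gene, with CPM on a log axis and 1 point per library. Circles are Ribo-Zero libraries, triangles NEBNext libraries, blue control, green Cre control and red cKO, and the black line is the group mean. Ldhc, Pgk2 and Cetn1 separate P14 from P16 in both kits, cKO P14 library 2 lies above the other Ribo-Zero P14 libraries, and Utp14b shows no such step.

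The Cre controls gave the same measurement in other libraries and with the other kit. Here 7 of the 9 genes rose and 0 fell, where 9.06% of the 18819 genes tested rose and 2.75% fell. Ldhc was at 33.3 and 54.2 CPM at P14 and at 475, 286, 391 and 204 at P16 (log2 change 2.94, SE 0.29, limma adjusted p 0.00086). Pgk2 was at 0.186 and 0.552 CPM, which is 3 and 8 reads, and then at 13.3, 6.32, 8.53 and 1.97 (log2 change 4.03, SE 0.64, limma adjusted p 0.0031). Cetn1 was at 2.36 and 3.10 CPM and then at 26.2, 18.2, 19.4 and 10.4 (log2 change 2.69, SE 0.31, limma adjusted p 0.00086). In all 3 genes P16 library 1 was the highest and library 4 the lowest, the same order as the ends of the pachytene marker sum. Cox6b2, Pdha2, Rpl10l and Rbmxl2 rose by 1.35, 1.07, 0.90 and 0.65 on the log2 scale. Cstf2t differed by 0.36 and Utp14b by -0.18, and neither passed. Without Cre control P14 library 1 the number that rose was 3, with Pgk2 at 3.38 (limma adjusted p 0.071). Without P16 library 1 or without library 4, 7 genes rose in each case, with Ldhc at 2.75 and 3.16, Pgk2 at 3.67 and 4.57 and Cetn1 at 2.50 and 2.94. The run that holds both stages has P14 libraries 1 and 2 but only library 1 of P16, the one with the highest pachytene marker sum, so the spread comes from the P14 pair alone and the values are given as a description: Ldhc differed by 3.55, Cetn1 by 3.31 and Utp14b by 0.01, and Pgk2 had too few reads for that fit. The order of the 9 genes by size of change was the same in both kits.

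Of the housekeeping counterparts that changed, Ldha alone rose in both kinds of control. In controls 1 of the 11 counterparts rose, 3 fell and 7 did not pass, and 10 had a value below 0. Of the 18581 genes tested, 13.3% rose and 6.67% fell. Those that fell were Rpl10 by 0.33 (SE 0.06, limma adjusted p 0.0031), Pdha1 by 0.29 (SE 0.07, limma adjusted p 0.022) and Cetn2 by 0.24 (SE 0.07, limma adjusted p 0.036) on the log2 scale. The median over the 11 was -0.19. The one that rose was Ldha, the muscle-type lactate dehydrogenase subunit, which rose from 61.3 and 54.1 CPM to 141 and 148 (log2 change 1.33, SE 0.09, limma adjusted p 0.00015). In Cre controls Ldha rose as well, by 1.67 (SE 0.22), and Rpl10 and Cstf2 fell by 0.47 and 0.36. Of the 18819 genes tested there, 9.06% rose and 2.75% fell. Ldha is autosomal, like Ldhb, which held 340.1 and 311 CPM at P14 and 307 and 294 at P16.

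**Figure D2:**
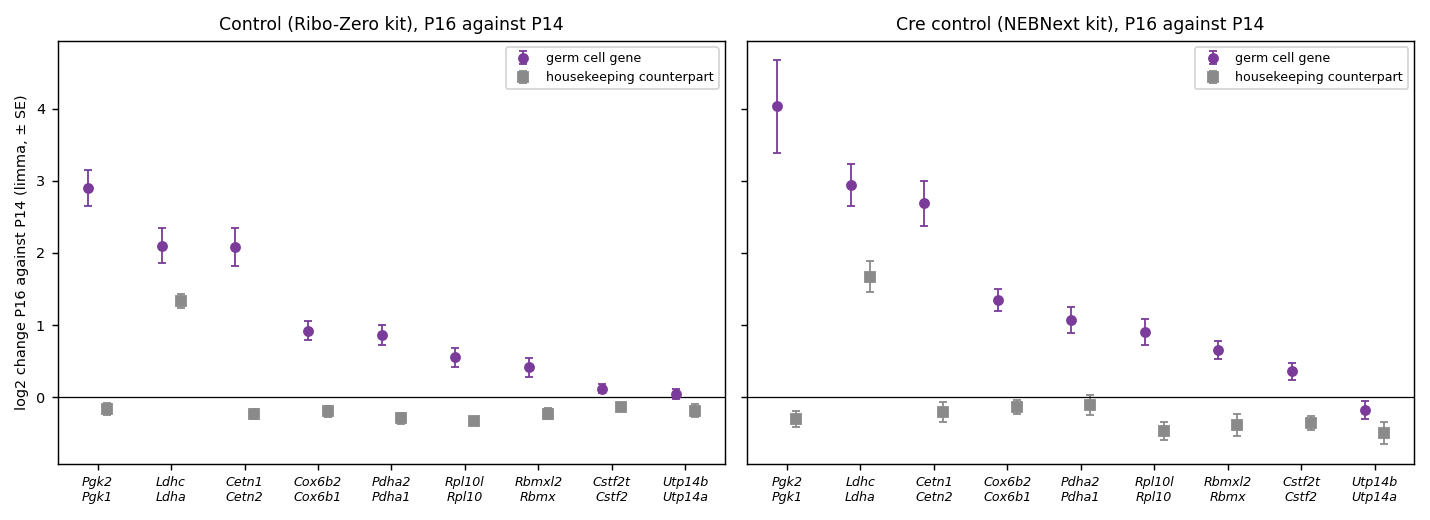
Log2 change from P14 to P16 for 9 germ cell genes (purple circles) and the housekeeping counterpart of each (grey squares), in controls on the left and Cre controls on the right, with the standard error from limma as bars. All germ cell genes but Utp14b in Cre controls lie at or above 0, Pgk2 is highest in both panels, and Ldha is the counterpart that rises.

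Reads of the germ cell gene relative to reads of its counterpart were higher at P16 than at P14 in 9 of 9 pairs in controls and in 9 of 9 in Cre controls. The ratio of Pgk2 to Pgk1 went up 8.57-fold in controls and that of Cetn1 to Cetn2 5.03-fold, while those of Cstf2t to Cstf2 and Utp14b to Utp14a went up 1.19-fold and 1.18-fold. The mean log2 ratio of Cetn1 to Cetn2 passed from -1.59 to 0.74, so that Cetn1 had fewer reads than its counterpart at P14 and more at P16. Pgk2 remained below Pgk1 at both stages, at -4.38 and -1.28. These ratios are of reads, not per length, and are a description without a test.

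Lists of other testis copies rose in part as well, while the ordinary glycolysis genes took no common direction. Over all 18581 genes tested in controls, 13.3% rose and 6.67% fell. Of 14 other testis copies of metabolic genes, 10 could be tested in controls, 8 rose and 0 fell, with a median of 0.87. Gykl1 and Gk2, relatives of glycerol kinase, rose by 2.05 (SE 0.30) and 2.03 (SE 0.17), Ldhal6b, a lactate dehydrogenase A-like retrogene, by 1.85 (SE 0.20), and Cox8c, a cytochrome c oxidase subunit, by 1.39 (SE 0.17). Of 5 other autosomal copies of X-linked genes, 4 could be tested and 3 rose: Zfa-ps by 0.73 (SE 0.20), Rpl39l by 0.57 (SE 0.10) and D1Pas1 by 0.56 (SE 0.11). Of the 16 ordinary genes of glycolysis and the pyruvate dehydrogenase complex, 4 rose and 3 fell, with a median of 0.02. Among these, Pfkp, a phosphofructokinase, rose by 1.02 (SE 0.15) and Dlat, the E2 subunit of pyruvate dehydrogenase, by 0.55 (SE 0.08).

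The knockout was compared with controls at P14, on the day after the second dose of tamoxifen, with 2 libraries a group. Of the 17270 genes tested, 1 (0.00579%) was called by limma, which was Ythdc2, and 410 had an unadjusted p under 0.05. None of the 9 genes tested was called by limma, edgeR or DESeq2, and 0 had an unadjusted p under 0.05, while 8 of 9 lay above 0 with a median of 0.14 against 0.0090 over all genes. Pgk2 had normalised read counts of 33.4 and 36.8 in controls and 42.7 and 78.6 in cKO (log2 difference 0.71, SE 0.32, limma adjusted p 1). Cetn1 had 213 and 221 in controls and 206 and 452 in cKO, and Ldhc 2221 and 2463 in controls and 1955 and 4034 in cKO. In each case the high value was that of cKO library 2, the library with the high pachytene marker sum, and cKO library 1 lay near the controls. With library 2 as the sole cKO library, Ldhc was called (log2 difference 0.79, limma adjusted p 0.048), and with library 1 as the sole cKO library Ldhc stood at -0.26, Cetn1 at -0.08 and Pgk2 at 0.28, with 0 of the 9 called and 8 of the 9 below 0. In these fits the lone cKO library is assumed to vary like the controls. The part of the marker difference in these values was not tested.

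At P16 the same comparison called many genes, and the 10 genes took no common direction. Of the 17986 genes tested, 18.6% were higher and 19.9% lower in cKO. Of the 9 germ cell genes tested, 3 were higher (Pgk2, Cetn1 and Pdha2) and 1 was lower (Utp14b), with a median of -0.0035 against -0.00050 over all genes. Counts of 3 and 1 out of 9 lie near the shares over all genes and say nothing particular to these genes. The pachytene marker sum was 1745 and 1782 CPM in controls and 1837 and 2066 in cKO, where 4 of the 8 markers were higher and 2 lower. The sum of leptotene and zygotene markers was 1028 and 972 against 775 and 809.8, and the sum of spermatogonial markers was 662 and 668 against 501 and 488. Macrophage markers, which were higher in cKO for 4 of 4 genes, summed to 84.7 and 88.8 CPM against 113 and 112. Sertoli markers (4 of 7 higher) summed to 747 and 727 against 887 and 789, Leydig markers (2 of 5 tested higher) to 160 and 169 against 213 and 185, and peritubular markers (1 of 4 higher) to 266 and 286 against 288 and 343. Spermatid markers summed to 5.32 and 5.92 against 7.46 and 8.46, of which nearly all was Spaca1 (log2 difference 0.52, SE 0.13, limma adjusted p 0.0073), with Prm2 and Tnp2 at 0 in every library. Their part in the values below was not tested.

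Pgk2 had the largest difference, with normalised read counts of 331 and 252 in controls and 518 and 532 in cKO. Every cKO value lay above every control value, and the pair of cKO libraries was tighter than the pair of controls. The difference was 1.81-fold (log2 difference 0.86, SE 0.11, limma adjusted p 9.5e-05), and it ran from 0.66 to 1.05 when each library was left out in turn. Ldhc, by contrast, had 10764 and 10848 in controls and 10333 and 11218 in cKO, which put its log2 difference at -0.01 (SE 0.04, limma adjusted p 0.94). Its control values lay between the cKO values. Pgk2 and Ldhc, both steeply up with age, thus had differences of 0.86 and -0.01 at P16. The difference between the 2 genes was not itself tested.

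Cetn1 had 975 and 1018 in controls and 1239 and 1301 in cKO, a 1.27-fold difference without overlap (log2 difference 0.35, SE 0.06, limma adjusted p 0.00056). Pdha2 had 2791 and 2926 against 3045 and 3407, which gave 0.17 on the log2 scale (SE 0.06, limma adjusted p 0.028), and the call was lost without either control library or without cKO library 2. Utp14b was the gene that fell, from 1207 and 1180 to 1035 and 993, by 0.23 on the log2 scale (SE 0.06, limma adjusted p 0.0066), and it was lost without control library 1 (limma adjusted p 0.070). Cox6b2 had 1314 and 1434 in controls and 1279 and 1467 in cKO, with controls inside the range of cKO. Rpl10l (log2 difference 0.15, SE 0.07), Cstf2t (-0.12, SE 0.04) and Rbmxl2 (-0.17, SE 0.08) did not pass, at limma adjusted p of 0.078, 0.053 and 0.10. With eBayes without trend, 0 of the 9 genes passed, with limma adjusted p of 0.055 for Pgk2 and 0.054 for Cetn1, and 1806 genes of the table were called in place of 6939.

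Of the counterparts at P16, Cstf2, Rbmx and Pdha1 were called, where 18.6% of all genes tested were higher and 19.9% lower. Cstf2, the X-linked polyadenylation factor, had 2916 and 2761 in controls and 2161 and 1949 in cKO, and fell by 0.47 on the log2 scale (SE 0.06, limma adjusted p 5.2e-05). Its retrogene Cstf2t had a difference of -0.12 beside it, so the read ratio of Cstf2t to Cstf2 went from a mean log2 value of 0.18 in controls to 0.53 in cKO. With NEBNext neither was seen: Cstf2 was at 87.0 CPM in cKO library 3 against 85.0 ± 5.44 (SD, n = 4) in Cre controls, and the mean log2 ratio of Cstf2t to Cstf2 differed by -0.26. The difference of Cstf2 from Cre controls over all 3 cKO libraries was 0.0019 (SE 0.08, limma adjusted p 0.988). Rbmx, an X-linked splicing factor, had 459 and 465 in controls and 601 and 546 in cKO, and rose by 0.31 (SE 0.08, limma adjusted p 0.0079). The ratio of Rbmxl2 to Rbmx went the other way, from 1.97 to 1.49. Pdha1 rose by 0.22 (SE 0.06, limma adjusted p 0.013), beside 0.17 for Pdha2. Ldha had a difference of -0.03 (SE 0.05) and Pgk1 one of -0.06 (SE 0.07). Over the 9 pairs the read ratio was higher in cKO than in control in 6 with Ribo-Zero, and higher in cKO library 3 than in the mean of Cre controls in 2.

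**Figure D3:**
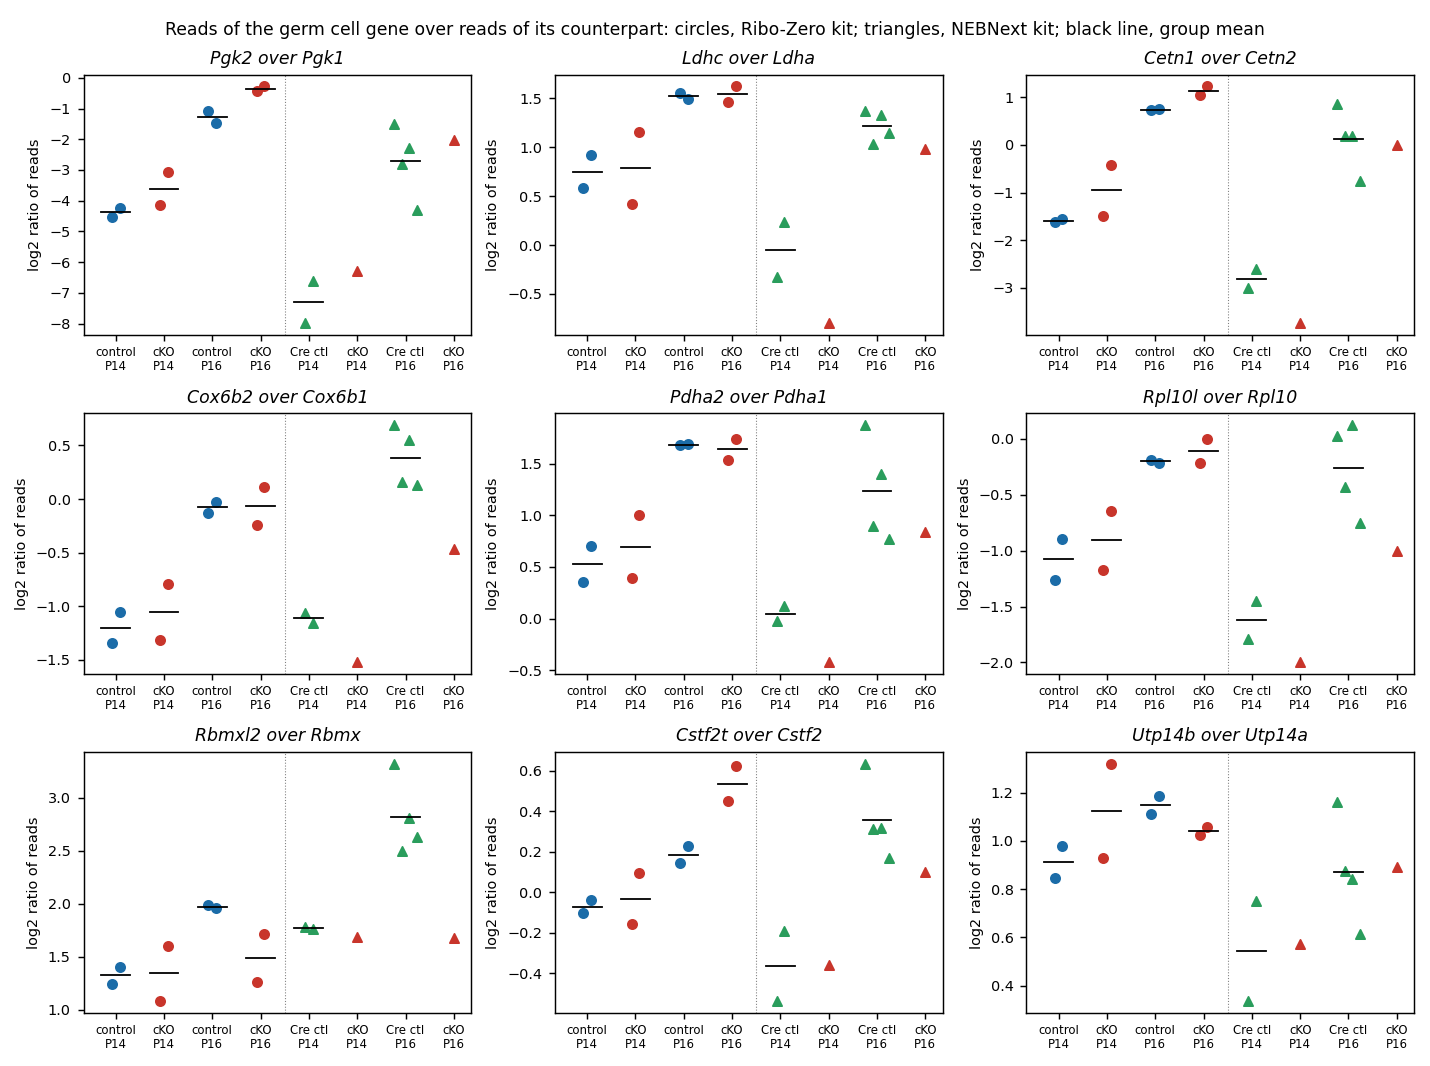
Log2 ratio of the reads of the germ cell gene to the reads of its housekeeping counterpart, 1 panel per pair and 1 point per library, with circles for Ribo-Zero and triangles for NEBNext libraries and black lines for group means. P16 lies above P14 in the means of all 9 pairs for controls and Cre controls, and Rbmxl2 over Rbmx is lower in the P16 cKO libraries than in the P16 controls of the same kit.

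The wider lists showed a similar mixture at P16. Over all 17986 genes tested, 18.6% were higher and 19.9% lower in cKO. Of the 10 other metabolic testis copies tested, 1 was higher and 4 were lower, with a median of -0.07. Cyct, the testis cytochrome c, was higher by 0.43 (SE 0.08), while Gykl1 fell by 0.64 (SE 0.09), Eno4, an enolase, by 0.58 (SE 0.13) and Slc25a31, the germ cell ADP/ATP carrier, by 0.24 (SE 0.05). Of 4 other autosomal copies of X-linked genes, 1 was lower, Zfa-ps, by 0.44 (SE 0.14). Of 16 ordinary glycolysis and pyruvate dehydrogenase genes, 6 were higher and 4 lower, with a median of 0.07. Aldoa and Hk2, an aldolase and a hexokinase, were higher by 0.35 each (SE 0.05 and 0.06), and Pfkp fell by 0.69 (SE 0.14) and Gpi1, glucose phosphate isomerase, by 0.31 (SE 0.05).

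The rise from P14 to P16 was also measured within the knockout, over the same days and with the same kit. In cKO libraries 1 and 2, 6 of the 9 genes rose and 1 fell, where 16% of the 18581 genes tested rose and 13.8% fell. The 6 were those that rose in controls: Pgk2 rose by 3.07 (SE 0.25), Cetn1 by 1.96 (SE 0.27), Ldhc by 1.85 (SE 0.24), Pdha2 by 0.88 (SE 0.14), Cox6b2 by 0.80 (SE 0.13) and Rpl10l by 0.61 (SE 0.13). Utp14b fell by 0.24 (SE 0.07, limma adjusted p 0.030), and this was lost without cKO P14 library 2 and without either P16 cKO library. Leaving out cKO P14 library 2 raised the change of Ldhc to 2.36 and of Cetn1 to 2.52. Without cKO P16 library 2 the rise of Rpl10l was 0.48 (limma adjusted p 0.075).

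An interaction term asked whether the effect of the deletion was different at P14 and P16. It was called for 7.39% of the 18581 genes and for 0 of the 9 germ cell genes by limma, edgeR or DESeq2, with 1 of the 9 at an unadjusted p under 0.05. That gene was Utp14b, with a difference of -0.28 (SE 0.10, limma adjusted p 0.115). For Pgk2 the difference was 0.16 (SE 0.35), for Ldhc -0.25 (SE 0.35) and for Cetn1 -0.12 (SE 0.38). These errors are wide, and for Ldhc and Cetn1 the sign depended on which library was left out. Over the fits that left out 1 library, Ldhc ran from -0.80 to 0.26 and Cetn1 from -0.71 to 0.43. The low ends came without cKO P14 library 1, and the high end of Cetn1 without cKO P14 library 2. Utp14b (-0.40 to -0.20) and Cstf2t (-0.23 to -0.02) stayed below 0 in every such fit. Among the counterparts the interaction was called for Cstf2 (-0.42, SE 0.08, limma adjusted p 0.017) and Rbmx (0.42, SE 0.11, limma adjusted p 0.049).

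Against Cre controls at P14, 2 Cre control libraries were compared with 3 cKO libraries of both kits. Limma called 0 of the 18196 genes (0%) and 0 of the 9 germ cell genes, with 705 genes and 1 of the 9 at an unadjusted p under 0.05, that 1 being Pgk2. On the recovered reads edgeR called 0 genes and DESeq2 5, with 0 of the 9 among them. Without cKO library 2, limma called 0 genes, and the log2 difference went from 0.82 to 0.19 for Ldhc, from 1.30 to 0.52 for Cetn1 and from 2.16 to 1.63 for Pgk2. Within the NEBNext kit the normalised read count of Ldhc was 618 and 968 in Cre controls and 490.2 in cKO library 3. For Cetn1 it was 43.8 and 55.4 against 29.9. Pgk2 went the other way, at 3.46 and 9.85 against 11.96, which is 3 and 8 reads against 10. Of 8 genes with a Cre control mean of at least 10, cKO library 3 lay below both Cre controls in 6 and above both in 0, where 34.3% of 17629 genes lay below and 25.8% above. The median log2 difference of the 8 was -0.30. Of 7 pachytene markers with such a mean, 5 were below as well, with a median of -0.18. A single library gives no test, and the part of the marker difference was not tested.

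Against Cre controls at P16, 4 Cre controls and 3 cKO libraries were compared. Of the 19200 genes tested, 4.30% were higher and 4.77% lower in cKO, and of the 9 germ cell genes 0 were higher and 2 lower. Cox6b2 had 2223, 1706, 2303 and 1579 in Cre controls and 1048, 1209 and 1069 in cKO, all 3 below all 4 (log2 difference -0.80, SE 0.15, limma adjusted p 0.038). Rbmxl2 had 2416, 1802, 2106 and 1863 in Cre controls and 1184, 1479 and 1337 in cKO, again without overlap (log2 difference -0.61, SE 0.13, limma adjusted p 0.041). Both calls were lost when any Cre control or cKO library 1 or 2 was left out, with limma adjusted p between 0.072 and 0.19. The 2 kinds of control, which differ in kit and run as well, were apart in both genes. Cox6b2 was at 50.6 and 55.1 CPM in Ribo-Zero controls and 80.0 to 114 in Cre controls, and Rbmxl2 at 69.7 and 70.0 against 90.8 to 122. In cKO, Cox6b2 was at 48.9 and 56.2 CPM with Ribo-Zero and 54.8 with NEBNext, and Rbmxl2 at 55.3 and 68.8 against 68.5. The NEBNext values in cKO are those of 1 library, and the part of the kit was not tested. For cKO libraries 1 and 2, kit and genotype cannot be told apart in this comparison.

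Cox6b2 and Rbmxl2 can be compared within each kit. With Ribo-Zero, cKO and control had a log2 difference of -0.0035 (SE 0.07) for Cox6b2 and of -0.17 (SE 0.08) for Rbmxl2. With NEBNext, cKO library 3 was lower than the Cre control mean by 0.85 for Cox6b2 and 0.60 for Rbmxl2 on the log2 scale. It lay below all 4 Cre controls for both genes, as it did for 30.9% of 18108 genes. Both genes were picked by a test that held these same libraries, so the NEBNext values are not separate evidence. With the kit as a covariate the differences were -0.83 (limma adjusted p 0.052) and -0.59 (limma adjusted p 0.072). In a fit that joined both kinds of control with the kit as a covariate, chosen after seeing the data, they were -0.37 (limma adjusted p 0.16) and -0.36 (limma adjusted p 0.061).

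The genes that were higher in cKO with Ribo-Zero can be set beside the NEBNext values in the same way. Pgk2 had 263, 125, 172 and 38.9 in Cre controls and 258 in cKO library 3, inside the range of the Cre controls and 1.07 above their mean on the log2 scale. Cetn1 had 518, 361, 391 and 205 in Cre controls and 364 in cKO library 3, a difference of 0.06. Pdha2 had 2407, 1537, 1969 and 1532 against 1443, which is below all 4 and the reverse of the Ribo-Zero direction. Ldhc had 9394, 5672, 7902 and 4039 against 4397, inside the range. Utp14b had 628, 561, 543 and 569.9 against 588, also inside it. Of the 9 genes with a Cre control mean of at least 10, cKO library 3 lay below all Cre controls in 4 (Pdha2, Rbmxl2, Cstf2t and Cox6b2) and above all in 0, where 30.9% of 18108 genes lay below and 23.4% above. The median difference was -0.27. Over both kinds of control with the kit as a covariate, 0 of the 9 were called by limma, with Pgk2 at 0.96 (limma adjusted p 0.17), Cetn1 at 0.23 (limma adjusted p 0.52) and 2701 genes called in the table. The pachytene marker sum in cKO library 3 was 1684 CPM, within the 1604 to 2864 of the Cre controls. The same library lay above all Cre controls for 5 of the 11 counterparts, Pgk1, Gapdh, Cetn2, Rbmx and Rpl10. Rbmx was higher in both kits, by 0.31 and 0.53, and it was the counterpart called against Cre controls (log2 difference 0.64, SE 0.13, limma adjusted p 0.039).

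**Figure D4:**
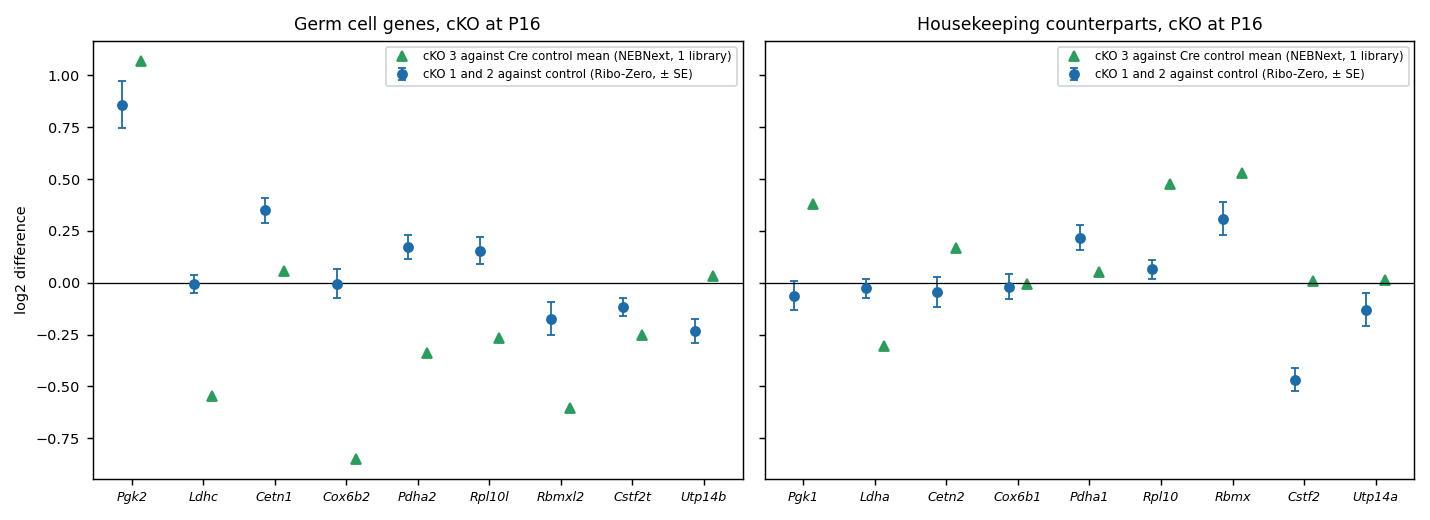
Log2 difference between cKO and control at P16 for 9 germ cell genes (left) and their counterparts (right). Blue circles give cKO libraries 1 and 2 against controls with the standard error from limma (Ribo-Zero), and green triangles give cKO library 3 against the mean of 4 Cre controls (NEBNext, a single library with no error). Of the germ cell genes, Pgk2 and Cetn1 lie above 0 and Rbmxl2 and Cstf2t below 0 with both kits. Ldhc and Cox6b2 lie close to 0 with Ribo-Zero and below 0 with NEBNext, while Pdha2, Rpl10l and Utp14b change sign between the kits. The counterpart Rbmx lies above 0 with both kits.

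Over the 8 Ribo-Zero libraries, the genes whose mean-centred log2 CPM followed each gene most closely were found for the 5 genes that spanned at least 1 on that scale. The measure was the root mean square difference over these 8 libraries, which share kit, run and the step between stages. For Ldhc the nearest were 4930430A15Rik (0.056) and Cdkl4 (0.073), and for Cetn1 Slc2a5 (0.13) and Dkkl1 (0.13). For Pgk2 the nearest were Gm17359 (0.17) and Adam5 (0.19), further off than for the other genes on this measure. The measure is not scaled to the span of a gene, which was 3.87 for Pgk2 and 1.12 (Cox6b2) to 2.57 (Cetn1) for the others. Pdha2 was followed by Tspyl4 (0.037) and Ptpdc1 (0.041), and Cox6b2 by Abhd8 (0.032) and Lrriq3 (0.043). Within the group, Ldhc and Cetn1 were nearest to each other (0.16), as were Pdha2 and Cox6b2 (0.072), while Pgk2 was 0.54 from its nearest, Cetn1.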

How the data were processed

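RNA from whole testes was sequenced in 16 libraries. The deposited values are a signal, normalised read counts that the authors scaled by library within each of 4 tables. Per the submitters' processing notes, Trim Galore, STAR, HTSeq and DESeq2 were used with GRCm39 (mm39); versions are not given in the sources used here. Dividing by the smallest step gave whole reads (within 0.01) for 100.0% of values above 0 in all 20 columns, and 0 columns were unmatched. Summary lines of the tables that name no gene were left out of depths and tests: unmapped reads were 18.1% to 21.8% of the total with Ribo-Zero and 30.7% to 41.1% with NEBNext, and reads outside genes 22.5% to 28.6% and 12.3% to 14.6%. All replicate pairs differed by more than sampling noise (chi-square per gene 2.36 to 23.8 over 11 pairs).

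Genotypes were compared inside a table with limma 3.58.1 (R 4.3.3, moderated with a mean trend) on log2(value + 1), for genes reaching 10 in 2 or more libraries. That scale understates changes of low genes. Stages and the interaction used log2 CPM (edgeR 4.0.16, TMM, prior count 1) from the recovered reads, because each stage had its own table, with the same minimum of 10. Calls needed a Benjamini-Hochberg adjusted p under 0.05 over every gene tested. The alternatives were count tests in edgeR and DESeq2 1.42.0 on recovered reads, pseudocounts of 0.1 and 10, a prior count of 5, no minimum or one of 50, other scalings, no trend, a block for replicate number, a kit covariate, and leaving out each library. The fits were tested on simulated counts with the same dispersion for every gene and 2 libraries a group, from Ribo-Zero means and depths. The Cre control comparisons were not simulated. Names, lengths and exons come from GENCODE M21 (GRCm38, another build than the authors'), which named 52081 of 55414 identifiers, so gene coordinates are not printed. The genes named are the 10 genes, their 11 counterparts, Ythdc2, up to 4 called genes of largest change per list and the 2 nearest genes by likeness. Members and lists were chosen with earlier results of these data known.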

Additional observations from a re-analysis of the deposited data

Results flagged for a closer look

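Gapdhs stood apart in Cre control P16 library 3, the highest of the 4 Cre controls, where the gap to the next library took up 1.0 of the group's range. The value there is 0.871 normalised read counts, which is 1 read, beside 0 in the other Cre controls of P16. A single read beside counts of 0 always gives a gap of 1.0, so this flag says nothing about Gapdhs. Gapdh, its counterpart, was low in Cre control P16 library 1, at 9958, and that gap took up 0.916 of the range. Both gaps are above Dixon's critical value for 4 libraries. These were 2 of 21 groups examined, a number of the order that chance gives.

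The effect of the deletion on 2 counterparts differed between P16 and P14 by the interaction test. The difference was 0.42 on the log2 scale for Rbmx and -0.42 for Cstf2. The cause was not tested.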

How the results depend on the processing

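Of 1104 values of the 9 genes under alternatives, 1013 kept their direction and side of the threshold, 50 lost a call, 40 gained one and 1 reversed: the interaction for Cetn1 became 0.43 without cKO P14 replicate 2, and was -0.71 without replicate 1. Among these 1013 are 69 values whose sign changed while called in neither fit. The counts below are of genes called in the whole table unless the 9 genes are named. For cKO against control at P14, 0 were called with no filter, 0 with eBayes without trend and 6 by DESeq2. At P16, eBayes without trend called 1806 and 0 of the 9. Against Cre controls at P14, DESeq2 called 5, the kit covariate 1 and the joined controls with kit 1. Against Cre controls at P16, counts were 3277 with pseudocount 10, 917 with no filter, 32 with eBayes without trend, 4188 by DESeq2, 364 with the kit covariate and 2701 with joined controls and kit. Of the 9 genes, 0 were called there without trend, with the kit covariate and with joined controls. Without trend, 2166 were called for the stage in controls, 903 (and 4 of the 9) for the stage in Cre controls and 135 for the interaction, which had 727 with no filter. The single run with both stages called 1059 in Cre controls. The joined fits were chosen after seeing the data. In the fits against Cre controls alone with the kit covariate, cKO library 3 alone sets the difference. There cKO libraries 1 and 2 are the only Ribo-Zero libraries.

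Leaving out each library in turn gave 0 to 11 genes (0 to 1 of the 9) for cKO against control at P14 and 4591 to 7045 (2 to 5) at P16. Against Cre controls it gave 0 to 6256 (0 to 7) at P14 and 0 to 9427 (0 to 6) at P16, where the highest values came without cKO library 3. The stage gave 1640 to 4737 (5 to 7) in controls, 3445 to 5451 (5 to 7) in cKO and 551 to 2777 (3 to 7) in Cre controls, and the interaction 284 to 3199 (0 to 4).

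Replicate numbers were not shown to pair libraries: correlations of deviations between same-numbered libraries were 0.203 at P14 and 0.0798 at P16, and -0.233 to 0.304 against Cre controls. With the replicate block, cKO against control gave 5 genes of the whole table at P14. At P16 it gave 7 of the 9, where the fit without the block called 38.6% of all genes tested. The share of all genes under the block is not given here, so that count says nothing particular to the 9 genes. Against Cre controls the block gave 6966 genes (7 of the 9) at P14 and 0 (0 of the 9) at P16, and 2228 for the interaction. At P14 that block, like the fit without cKO library 3, sets cKO libraries 1 and 2 (Ribo-Zero) against Cre controls (NEBNext), so kit and genotype cannot be told apart in these counts. Gapdhs was below the depth needed for any test.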
